A study of Mus musculus with 9 samples.

Results

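The Schlafen genes are a family of mouse genes that stand side by side on chromosome 11. The 7 genes described here, Slfn1, Slfn2, Slfn3, Slfn4, Slfn5, Slfn8 and Slfn9, were taken by gene symbol from 37022 genes, with the most strongly transcribed row of each gene used. They were followed in nascent RNA from mouse CD8+ T cells, the class of T lymphocyte that kills infected and tumour cells. There were 9 libraries in 3 groups: acute stimulation (Acute, 3 libraries), chronic stimulation (Chronic, 3 libraries), and chronic stimulation with MEK inhibition (ChronicMEKi, 3 libraries). Cells of every group were labelled for 30 minutes with 5-ethynyl uridine at 0.2 mM, which enters newly made RNA, and the marked RNA was pulled down and sequenced. Strain, age, the mode and length of stimulation, the inhibitor and its dose are not given in the sources used here. Nothing in the labels says that the replicates came from separate animals or cultures, so p-values measure only the spread between these libraries.

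Schlafen proteins share a core domain that binds nucleic acids, and the family is known for restraining growth and for cutting or protecting transfer RNA. The mouse genes are grouped by the size of their products: short (Slfn1 and Slfn2), intermediate (Slfn3 and Slfn4) and long (Slfn5, Slfn8 and Slfn9), the long ones carrying a helicase-like part. In T cells the family is best known for quiescence: Slfn1 blocks thymocyte growth when overexpressed, and T cells that lack working Slfn2 cannot hold the resting state. Several members are induced by type I interferon, which acts through the interferon-stimulated response element, a DNA motif near the start site.

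Of the 7 genes, 6 were transcribed at a level that allowed a test and 1, Slfn4, was not. In chronic compared with acute libraries Slfn1, Slfn8 and Slfn2 fell, and Slfn9, the neighbour of Slfn8, rose. Slfn5 was also lower in chronic libraries, but it passed the filter on low signal only through the acute libraries, which fixed that direction. Slfn1 fell 7.79-fold, Slfn8 6.83-fold and Slfn2 1.71-fold as ratios of group means, while Slfn9 rose 2.98-fold. With MEK inhibition Slfn1 and Slfn8 rose from the chronic level, by 2.23-fold and 3.27-fold, and both stayed below the acute level. The other tested members had no call between ChronicMEKi and Chronic.

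Promoter windows are shown for 5 genes. The pair that moved in opposite directions can be compared with Slfn1 and Slfn2, which fell in chronic libraries. Slfn5 is shown too, but the filter fixed its lower value in chronic libraries. The windows are from RefSeq, build GRCm38.p6. Each has 300 bases, from 250 before the start site to 50 after, written 5′ to 3′ along the gene's own strand. All 7 members had a window. Capitals mark the core of the interferon-stimulated response element on either strand, searched as GAAA, any 2 bases, then GAAA.
Slfn8, chr11:83020761-83021060, minus strand: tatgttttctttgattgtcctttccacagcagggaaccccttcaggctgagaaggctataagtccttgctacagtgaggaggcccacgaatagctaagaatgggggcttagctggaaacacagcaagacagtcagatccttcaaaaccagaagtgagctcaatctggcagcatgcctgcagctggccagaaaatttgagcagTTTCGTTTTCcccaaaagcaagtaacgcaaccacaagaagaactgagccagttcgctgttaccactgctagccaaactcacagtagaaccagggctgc
Slfn9, chr11:82991781-82992080, minus strand: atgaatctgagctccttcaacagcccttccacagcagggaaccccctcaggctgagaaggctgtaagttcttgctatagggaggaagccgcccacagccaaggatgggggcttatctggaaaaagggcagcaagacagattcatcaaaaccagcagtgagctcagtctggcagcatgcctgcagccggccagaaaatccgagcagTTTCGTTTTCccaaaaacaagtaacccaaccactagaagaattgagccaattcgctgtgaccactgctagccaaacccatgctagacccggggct
Slfn5, chr11:82951852-82952151, plus strand: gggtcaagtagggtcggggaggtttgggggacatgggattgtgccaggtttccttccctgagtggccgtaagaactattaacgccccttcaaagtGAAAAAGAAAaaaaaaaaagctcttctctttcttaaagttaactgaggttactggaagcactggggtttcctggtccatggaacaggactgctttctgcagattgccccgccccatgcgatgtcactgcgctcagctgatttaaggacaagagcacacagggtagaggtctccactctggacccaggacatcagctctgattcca
Slfn1, chr11:83116570-83116869, plus strand: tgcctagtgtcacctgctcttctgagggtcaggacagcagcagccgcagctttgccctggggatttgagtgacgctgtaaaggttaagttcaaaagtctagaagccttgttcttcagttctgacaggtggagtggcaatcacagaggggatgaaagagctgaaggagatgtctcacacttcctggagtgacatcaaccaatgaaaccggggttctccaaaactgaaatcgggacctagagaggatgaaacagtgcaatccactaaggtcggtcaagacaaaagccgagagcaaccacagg
Slfn2, chr11:83064862-83065161, plus strand: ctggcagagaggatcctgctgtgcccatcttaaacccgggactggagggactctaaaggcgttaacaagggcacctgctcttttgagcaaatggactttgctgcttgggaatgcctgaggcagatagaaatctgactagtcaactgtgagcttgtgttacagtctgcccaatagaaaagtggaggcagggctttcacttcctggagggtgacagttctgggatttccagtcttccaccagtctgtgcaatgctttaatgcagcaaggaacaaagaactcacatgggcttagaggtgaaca

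The Slfn8 and Slfn9 windows aligned over 280 columns with 85.0% identity. Both held the same match, TTTCGTTTTC, which is the motif read on the other strand, beginning 48 bases before the Slfn8 start site and 45 bases before that of Slfn9. Slfn8 has a further RefSeq start site, in whose window the same match lies 136 bases before the start. Slfn5 held 1 match, GAAAAAGAAA, 155 bases before its start site, at the edge of a run of A. Slfn1, Slfn2, Slfn3 and Slfn4 held none. Over 32851 RefSeq promoter windows of this length, 3.44% held the motif. The other 3 motifs searched on both strands were TTCNNNGAA (gamma-activated sequence, in 8.3% of windows), CCGGAAG (ETS core, in 8.86%) and CACCC (KLF core, in 57.5%). The first was in no member, the second in Slfn4 alone at 84 bases before the start, and CACCC in Slfn2 and Slfn3. No member's window held matches to more than 1 of the 4 motifs, so none overlapped. These matches are letters in a window and not measured binding sites.

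Values are scaled gene-body signal, the deposited signal over the transcribed region divided by a factor per library, with no length correction unless stated. Depth in reads is unknown. Deposited gene-body signal added up to between 48600000 and 52220000 per library, of which a locus of ribosomal RNA-like sequence took 19.1% to 40.6%. That share was higher in chronic libraries, so the choice of scaling matters: library totals move the median log2 change of all tested genes between Chronic and Acute by -0.48 relative to the trimmed mean used here. The deposited scale moves it by -0.47, and totals that leave out that locus by -0.16. With library totals, genes called higher and lower numbered 1096 and 6846 between Chronic and Acute (2875 and 2528 with the trimmed mean), 1769 and 741 between ChronicMEKi and Chronic (1583 and 1219), and 955 and 4965 between ChronicMEKi and Acute (2291 and 1827). Every change below is relative to the bulk of tested genes and is not an amount per cell. In bulk RNA, fewer cells that transcribe a gene and less transcription per cell cannot be told apart.

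The libraries were checked against markers of their labelled cell type. All 8 general T cell genes were transcribed, and their summed signal was 38890 to 45750 in acute, 27610 to 33310 in chronic and 32380 to 36180 in ChronicMEKi libraries. Cd8a and Cd8b1, which encode the CD8 chains, moved with the groups and summed to 5555 to 6428, 2092 to 2293 and 4458 to 5373 in the same order. The 2 genes for CD4 T cells summed to 1040 to 1367, 1054 to 1383 and 1729 to 2016, and moved apart between Chronic and ChronicMEKi: Zbtb7b, a transcription factor of that lineage, rose by 0.82 on the log2 scale (limma adjusted p = 0.000484), and Cd4 fell by 0.91 (adjusted p = 0.0449). Of 11 myeloid genes 5 passed the filter, with sums over the 11 of 762.0 to 1237, 987.5 to 2101 and 1243 to 1830. Among those that did not pass, Lyz2, S100a8 and S100a9 had group means of at most 2.83, and Itgam, Spi1 and Csf3r of 4.67 to 32.4. Among those that passed, Csf1r, Cd68 and Adgre1 had group means of 53.3 to 110.5. Of the 5, Fcgr3 rose between Chronic and Acute, from a mean of 290.6 to 993.0 (limma adjusted p = 0.0102), Cebpb rose between Chronic and ChronicMEKi, from 302.8 to 748.5 (adjusted p = 0.00113), and the other 3 were called in neither comparison. Of 5 B cell genes 2 passed, with sums of 533.6 to 564.8, 189.4 to 219.2 and 160.4 to 434.5. Of 5 dendritic cell genes 3 passed, with sums of 420.7 to 467.5, 397.9 to 473.2 and 335.4 to 430.3. Of 3 NK cell genes 1 passed (Eomes, which CD8+ T cells also express), with sums over the 3 of 1263 to 1434, 970.6 to 1835 and 1568 to 1693, and Eomes was called in no comparison. The part of these shifts in the Schlafen results was not tested. MEK output genes were read as a check of the inhibitor. All 5 (Dusp6, Etv4, Etv5, Spry2 and Spry4) were called lower in ChronicMEKi than in Chronic, beside 7.65% of all tested genes. Dusp6, a phosphatase induced by ERK, went from 2395 to 203.8. Etv4, Spry4 and Etv5 had means of 114.8, 113.5 and 695.5 in Chronic but 18.3, 15.4 and 48.9 in ChronicMEKi, under the filter of 50. They passed the filter only through other groups, which favoured that direction. With the filter at 100, 3 of the 5 were tested and all 3 were lower.

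The members differed widely in level. Per kilobase of the row's span, Slfn2 was the most strongly transcribed member in each group, at 655.5 ± 86.0 scaled signal per kb (SD, n = 3) for Acute, 382.6 ± 33.1 for Chronic and 443.8 ± 28.9 for ChronicMEKi. In acute libraries the order went on with Slfn1 at 487.0 ± 37.6, Slfn8 at 85.8 ± 14.2, Slfn3 at 49.98 ± 7.38, Slfn9 at 16.2 ± 3.59, Slfn5 at 7.96 ± 4.41 and Slfn4 at 0.495 ± 0.299 per kb. Only Slfn9 and Slfn5 overlapped as neighbours in that order. In chronic libraries Slfn3 (63.2 ± 2.77 per kb), Slfn1 (62.5 ± 13.3) and Slfn9 (48.1 ± 13.0) formed a middle group whose neighbouring ranges overlapped, and Slfn8 had dropped to 12.6 ± 0.394. Slfn1 thus went from the level of the genes near the top to the middle: 97.3% of 15942 tested genes had a lower signal per kb in acute, 65.1% in chronic and 85.4% in ChronicMEKi libraries.

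**Figure D1:**
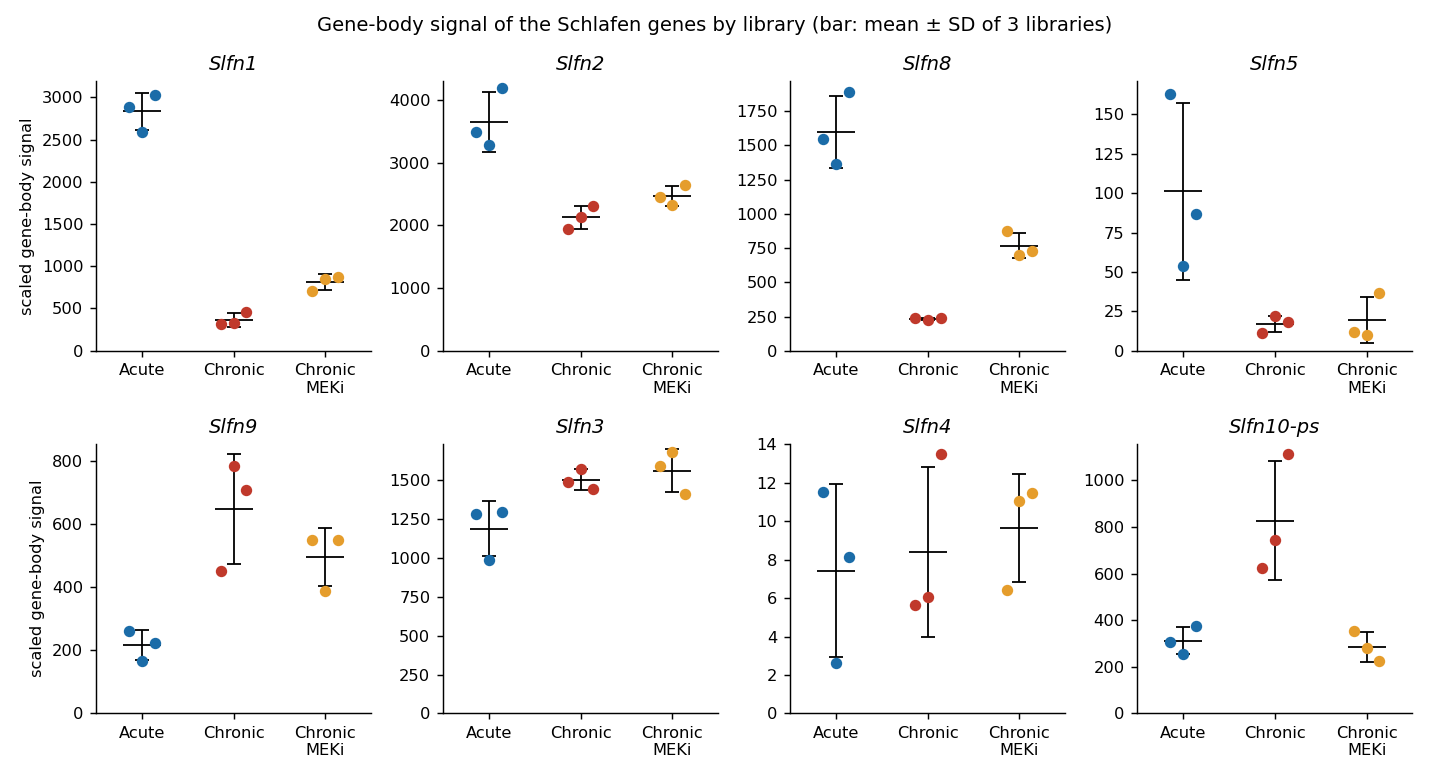
Scaled gene-body signal (vertical axis, from 0, a separate scale in each panel) of the 7 Schlafen members and the pseudogene Slfn10-ps in 9 libraries, by group; dots are libraries and bars the mean ± SD of 3. In Slfn1 and Slfn8 the 3 groups stand apart with ChronicMEKi in between, while Slfn9 is lowest in acute libraries.

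Among the short members, Slfn1 (chr11:83116849-83122670, plus strand) read 2888, 2595 and 3023 in acute, 312.3, 326.5 and 453.0 in chronic, and 702.5, 850.4 and 875.9 in ChronicMEKi libraries 1 to 3. The 3 groups did not overlap, with chronic lowest and ChronicMEKi in between. Between Chronic and Acute the log2 change was -2.96 ± 0.16 (SE, limma adjusted p = 1.045e-10), and only 90 of 15942 tested genes had a lower value. In this comparison 33.9% of all tested genes were called in either direction, and 15.9% as lower, and the groups did not overlap in 44.2% of genes. From Chronic to ChronicMEKi Slfn1 rose by 1.16 ± 0.16 (adjusted p = 3.789e-05), in a comparison that called 17.6% of genes, 9.93% as higher and 7.65% as lower, with non-overlapping groups in 32.2%. ChronicMEKi stayed below Acute, with a log2 change of -1.81 ± 0.16 (adjusted p = 1.286e-07), where 25.8% of genes were called, 11.5% as lower, and 42% had non-overlapping groups.

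Slfn2 (chr11:83065112-83070678, plus strand), the quiescence factor, read 3485, 3274 and 4188 in acute, 1944, 2133 and 2312 in chronic, and 2454, 2319 and 2639 in ChronicMEKi libraries. Again no groups overlapped, but the steps were small. The change between Chronic and Acute was -0.77 ± 0.11 (SE, limma adjusted p = 2.816e-05). ChronicMEKi exceeded Chronic in each pair of libraries, yet the change of 0.22 ± 0.11 did not pass the test (adjusted p = 0.219), and 32.2% of all tested genes had non-overlapping groups in this comparison. Between ChronicMEKi and Acute the change was -0.56 ± 0.11 (adjusted p = 0.00107). An antisense gene, Gm20234, overlaps Slfn2 and had nearly its values, with means of 3540, 2091 and 2398 beside 3649, 2130 and 2470 for Slfn2 in Acute, Chronic and ChronicMEKi. Whether the counting used strand is not given in the sources used here, so signal from these 2 genes cannot be told apart.

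Among the long members, Slfn8 (chr11:83002158-83020810, minus strand) read 1547, 1367 and 1888 in acute, 240.1, 226.2 and 237.2 in chronic, and 871.5, 699.3 and 731.2 in ChronicMEKi libraries. The chronic libraries were close to one another, and no groups overlapped. Slfn8 fell by 2.73 on the log2 scale between Chronic and Acute (SE 0.17, limma adjusted p = 4.978e-10), and 116 tested genes had a lower value. It rose by 1.68 ± 0.17 from Chronic to ChronicMEKi (adjusted p = 7.767e-07), a change that 169 tested genes exceeded. The change between ChronicMEKi and Acute was -1.05 ± 0.17 (adjusted p = 0.000119).

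Slfn9 (chr11:82978390-82991830, minus strand), another long member, went the other way. It read 262.5, 166.5 and 222.2 in acute, 449.8, 783.7 and 705.9 in chronic, and 547.9, 388.7 and 547.8 in ChronicMEKi libraries. Acute libraries were all below the other 6, whereas chronic and ChronicMEKi libraries overlapped. Slfn9 rose by 1.54 ± 0.25 between Chronic and Acute (SE, limma adjusted p = 8.138e-05), where 18% of tested genes were called higher. Its change between ChronicMEKi and Chronic, -0.36 ± 0.25, did not pass the test (adjusted p = 0.376), and ChronicMEKi was 1.18 ± 0.25 above Acute (adjusted p = 0.0015), where 14.4% of genes were called higher.

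Slfn8, Slfn9 and the pseudogene Slfn10-ps are close copies, so their values carry some uncertainty. The transcripts of Slfn8 and Slfn9 were 92.6% identical over 3496 aligned bases, and those of Slfn10-ps were 92.2% identical to Slfn8 and 92.1% to Slfn9. Of stretches of 100 bases, the read length, 3.71% in the Slfn8 transcript and 3.9% in Slfn9 occurred unchanged in another Schlafen transcript, and 7.84% in Slfn10-ps. These transcripts are spliced. Exons, the parts they keep, make up 21.5% of the span of the Slfn8 row and 42.9% of that of Slfn9. The introns, which gene-body signal also covers, were not compared. How reads that fit several places were treated is not given in the sources used here. The 2 genes nonetheless carried separate signals, since one fell while the other rose in the same libraries.

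Slfn10-ps (chr11:83028130-83040042, minus strand), transcribed from between Slfn8 and Slfn2, had yet another pattern. It read 307.4, 256.3 and 373.0 in acute, 624.5, 742.6 and 1112 in chronic, and 353.3, 281.8 and 223.9 in ChronicMEKi libraries, so that the chronic libraries stood above the other 6. It rose by 1.36 ± 0.24 between Chronic and Acute (SE, limma adjusted p = 0.00025) and fell by 1.49 (SE 0.24) from Chronic to ChronicMEKi (adjusted p = 0.000214). Against Acute, ChronicMEKi changed by -0.13 ± 0.24 (adjusted p = 0.748). Slfn14 and Slfnl1, further Schlafen or Schlafen-like genes, did not pass the filter, with group means of at most 12.0 and 15.6.

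Slfn5 (chr11:82951349-82964840, plus strand), a long member that acts in the nucleus, was weak. It read 163.3, 53.8 and 87.0 in acute, 11.3, 21.8 and 18.0 in chronic, and 12.0, 10.2 and 36.5 in ChronicMEKi libraries, with acute libraries above the other 6. The change between Chronic and Acute was -2.17 ± 0.64 (SE, limma adjusted p = 0.0135) and between ChronicMEKi and Acute -2.14 ± 0.64 (adjusted p = 0.0194), while ChronicMEKi and Chronic differed by 0.03 ± 0.64 (adjusted p = 0.985). Slfn5 passed the filter through the acute libraries alone, so that it had to differ if tested, and without any 1 acute library it was not tested. It overlaps an antisense gene, Slfn5os, whose mean went from 66.8 in acute to 6.55 in chronic and 15.7 in ChronicMEKi libraries, and with strand use unknown these 2 cannot be told apart either.

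Of the intermediate members, Slfn3 (chr11:83191330-83215154, plus strand) was the 1 that could be tested. It read 1286, 987.9 and 1298 in acute, 1493, 1576 and 1446 in chronic, and 1590, 1685 and 1412 in ChronicMEKi libraries. Acute libraries were lowest, with a gap to the rest that was smaller than the spread among them. The change between Chronic and Acute was 0.35 ± 0.13 (SE, limma adjusted p = 0.0498), at the edge of the threshold, and it was -0.14 and -0.13 with library totals and on the deposited scale. Between ChronicMEKi and Acute it was 0.40 ± 0.13 (adjusted p = 0.0322), and 0.02 with library totals (adjusted p = 0.951). The first call was lost on leaving out any 1 of the 9 libraries except acute replicate 3 (adjusted p = 0.0511 to 0.178), and the second on leaving out any acute library or ChronicMEKi replicate 1 or 2 (adjusted p = 0.0554 to 0.223). Both values were smallest without acute replicate 2, the lowest library, at 0.23 and 0.22. ChronicMEKi and Chronic differed by 0.05 ± 0.13 (adjusted p = 0.859).

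Slfn4 (chr11:83175186-83190216, plus strand), known from macrophages and other myeloid cells, lies next to Slfn3 and its transcript was 92.5% identical to that of Slfn3 over 1714 aligned bases. Its signal was 2.62 to 11.5 in acute, 5.64 to 13.5 in chronic and 6.41 to 11.5 in ChronicMEKi libraries. It was not tested, and the groups overlapped fully.

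**Figure D2:**
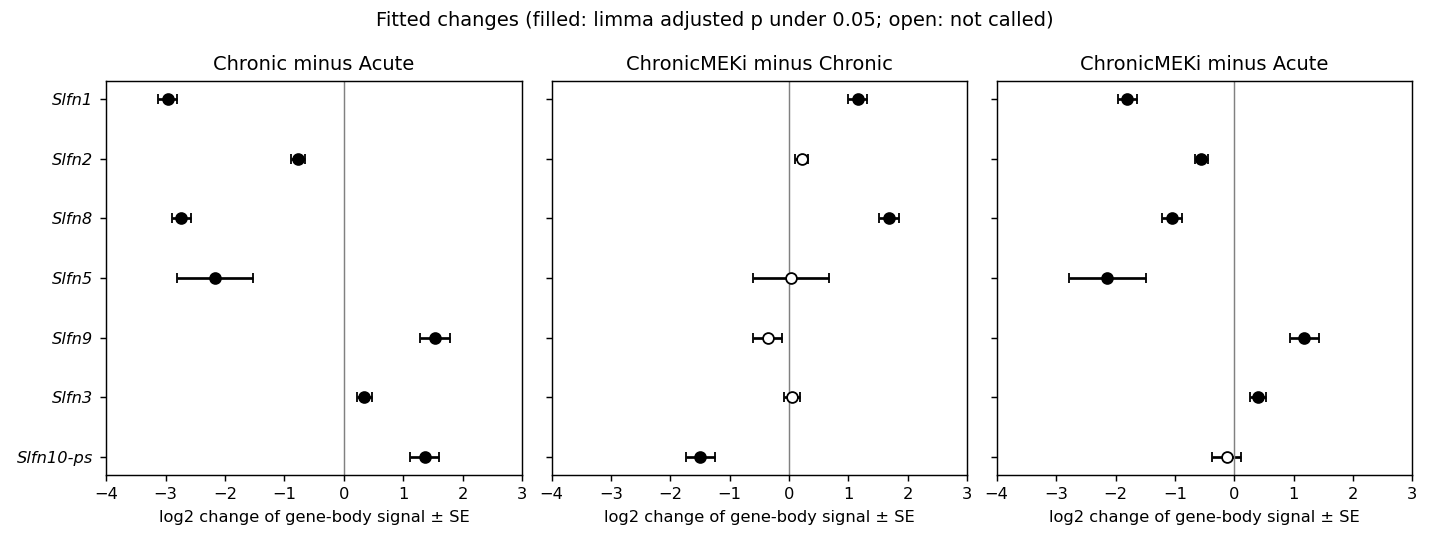
Log2 change of gene-body signal (horizontal axis, ± SE) of the 6 tested members and Slfn10-ps in the 3 comparisons; filled points have a limma adjusted p under 0.05. Slfn1 and Slfn8 are filled on the lower side in Chronic minus Acute and on the higher side in ChronicMEKi minus Chronic, where the other 4 members are open.

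Counted together, all 6 tested members were called between Chronic and Acute, 4 lower and 2 higher, beside 33.9% of all tested genes, with a median log2 change of -1.47 beside -0.02 for all tested genes. Without Slfn5, whose direction the filter fixed, 3 were lower and 2 higher, and the median was that of Slfn2, -0.77. Slfn5 and Slfn3 have the limits given above, and leaving out any 1 library gave 4 or 5 calls. The calls of Slfn1, Slfn2, Slfn8 and Slfn9 held under all 22 other settings tried. Between ChronicMEKi and Chronic 2 of 6 were called, beside 17.6% of all genes, both higher and under all 22 other settings, with a median of 0.13 beside 0.04. Between ChronicMEKi and Acute all 6 were called, beside 25.8% of all genes, 4 lower and 2 higher, with a median of -0.80 beside 0.00, or -0.56 without Slfn5. The comparisons share libraries: those with Chronic share its 3 libraries and those with Acute share its 3.

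The make-up of the family's signal shifted accordingly. The 7 members added up to 9604 ± 1137 for Acute (SD, n = 3), 4905 ± 393 for Chronic and 6134 ± 151 for ChronicMEKi. Slfn1 gave 29.6% ± 1.29 of it in acute, 7.40% ± 1.20 in chronic and 13.2% ± 1.61 in ChronicMEKi libraries, and Slfn8 gave 16.6% ± 0.872, 4.81% ± 0.508 and 12.5% ± 1.37. Slfn2 held a similar part throughout, 38.0% ± 1.62, 43.4% ± 1.28 and 40.3% ± 1.73. Slfn3 went from 12.4% ± 0.846 to 30.8% ± 2.82 and 25.5% ± 2.85, and Slfn9 from 2.25% ± 0.407 to 13.1% ± 2.72 and 8.05% ± 1.32. These sums are not corrected for gene length, and shares are free of the scaling between libraries.

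**Figure D3:**
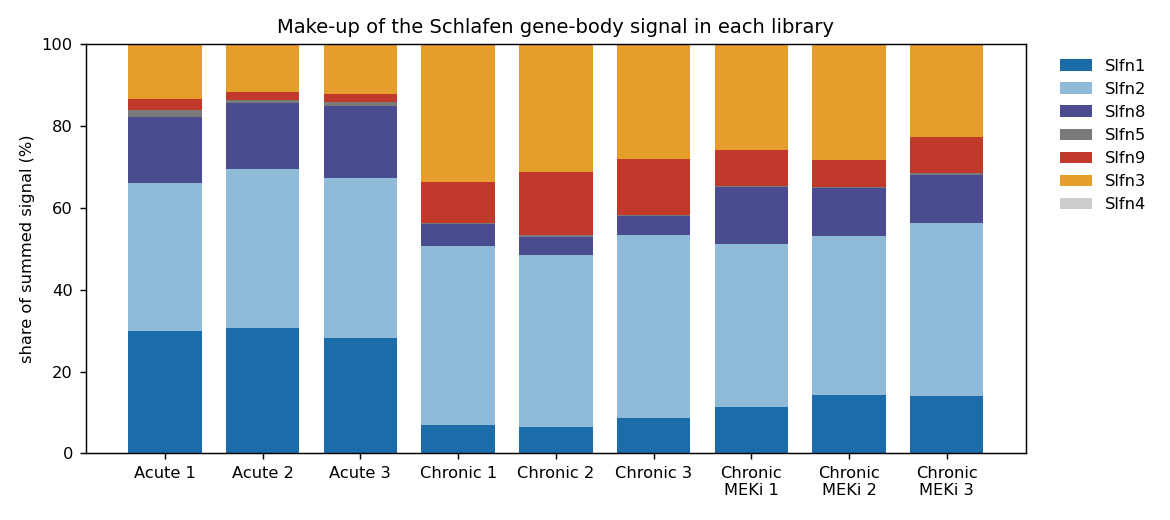
Share of the summed gene-body signal of the 7 members (vertical axis, %) taken by each of them, in each of the 9 libraries. The Slfn1 and Slfn8 segments are small in the 3 chronic libraries and larger in the ChronicMEKi ones, and Slfn4 is too small to see.

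Along the chromosome genes that fell and genes that rose were interspersed. In the order Slfn5, Slfn9, Slfn8, Slfn10-ps, Slfn2, Slfn1, Slfn4, Slfn3, over 263.8 kb, Slfn8, Slfn2 and Slfn1 fell between Chronic and Acute, and Slfn9 and Slfn10-ps, which flank Slfn8, rose. Slfn2 and Slfn1, which both fell, are neighbours in that order. Slfn3 at the far end was called higher at the edge of the threshold, Slfn4 was not tested, and the lower value of Slfn5 has the limit of the filter. Fallers stood on both strands, and the annotation placed no other protein-coding gene among them. Within 500 kb on either side, 12 of 23 protein-coding genes were tested and 2 were called higher and 1 lower between Chronic and Acute, with a median of -0.02. The nearest tested neighbour before the cluster was Nle1, with -0.16 ± 0.13 (SE, limma adjusted p = 0.353). The 2 called higher were Ccl3 and Ccl4, chemokine genes at the far end of that window, with 5.22 ± 0.63 (adjusted p = 3.179e-06) and 5.39 ± 0.48 (adjusted p = 7.579e-08). Their means were 14.97 and 22.3 in acute, 579.6 and 1063 in chronic, and 9.42 and 15.2 in ChronicMEKi libraries. Both passed the filter only through the chronic libraries, which fixed that direction. The 1 called lower was Rffl, with -0.52 ± 0.12 (adjusted p = 0.00225). These 3 were named after their values were seen.

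**Figure D4:**
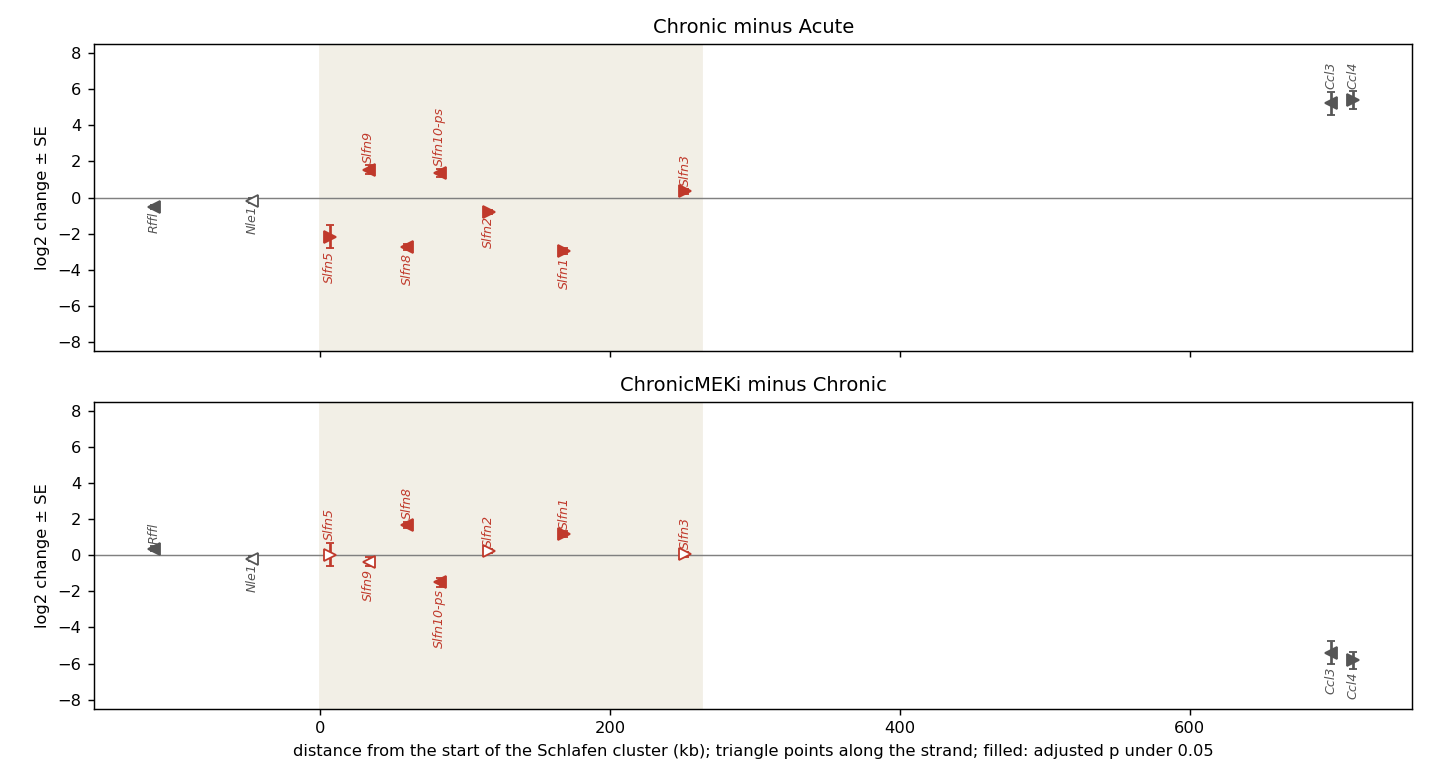
Log2 change of gene-body signal (vertical axis, ± SE) against distance from the start of the Schlafen cluster (horizontal axis, kb) for the 6 tested members, Slfn10-ps and the 4 neighbours named in the text, with the cluster shaded and Schlafen genes in red; filled points have an adjusted p under 0.05. Schlafen genes lie on both sides of 0 in the upper panel, where Nle1 and Rffl lie near 0 and Ccl3 and Ccl4, whose direction the filter fixed, above 5.

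The pause region, the stretch near the start site, was read for the 4 members that passed its filter. Slfn1 read 269.3, 170.9 and 240.1 in acute, 30.3, 67.7 and 12.1 in chronic, and 78.7, 37.0 and 22.0 in ChronicMEKi libraries. Chronic and ChronicMEKi overlapped here, unlike in the gene body. Slfn1 changed by -2.69 ± 0.48 between Chronic and Acute (SE, limma adjusted p = 0.00026). The change was -2.32 ± 0.48 between ChronicMEKi and Acute (limma adjusted p = 0.00275), and 0.37 ± 0.48 between ChronicMEKi and Chronic (adjusted p = 0.805). Slfn1 passed the filter only with acute libraries counted, which favoured a lower value in both comparisons with Acute. Both of these calls held under all 22 other settings, including no filter. Of all tested genes 10.7% were called between Chronic and Acute, 5.35% as lower, 5.95% between ChronicMEKi and Acute, 2.51% as lower, and 3% between ChronicMEKi and Chronic. Groups did not overlap in 24.3%, 24.7% and 20.2% of genes in the same order.

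Slfn2 read 876.7, 497.4 and 1080 in acute, 260.4, 483.3 and 373.3 in chronic, and 353.1, 339.3 and 424.1 in ChronicMEKi libraries. Acute libraries were highest, the lowest of them only just. The change between Chronic and Acute was -1.10 ± 0.25 (SE, limma adjusted p = 0.00309), a call lost without trend and robust moderation (adjusted p = 0.0874), and between ChronicMEKi and Acute -1.06 ± 0.25 (adjusted p = 0.0078), a call lost without acute replicate 1 (adjusted p = 0.0501) or 3 (adjusted p = 0.0651). ChronicMEKi and Chronic differed by 0.04 ± 0.25 (adjusted p = 0.974).

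Slfn8 read 86.5, 57.6 and 102.8 in acute, 1.05, 9.34 and 1.01 in chronic, and 43.1, 21.9 and 43.1 in ChronicMEKi libraries, with no overlap between groups. Its change between Chronic and Acute, -3.40 ± 0.70 (SE, limma adjusted p = 0.00132), was exceeded in the same direction by 21 of 7678 tested genes. Slfn8 passed the filter only with acute libraries counted, which favoured that direction. The call held under all 21 other settings in which Slfn8 was tested, including no filter. The change of 2.30 ± 0.70 from Chronic to ChronicMEKi did not pass (adjusted p = 0.0721), nor did the change of -1.10 ± 0.70 between ChronicMEKi and Acute (adjusted p = 0.429). Slfn3 read 43.3 to 155.2 in acute, 92.2 to 152.9 in chronic and 82.4 to 141.9 in ChronicMEKi libraries, overlapping throughout, with 0.34 ± 0.38 between Chronic and Acute (adjusted p = 0.667). Between ChronicMEKi and Chronic limma thus called 0 of 4 members, and 1, Slfn8, had an unadjusted p under 0.05.

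**Figure D5:**
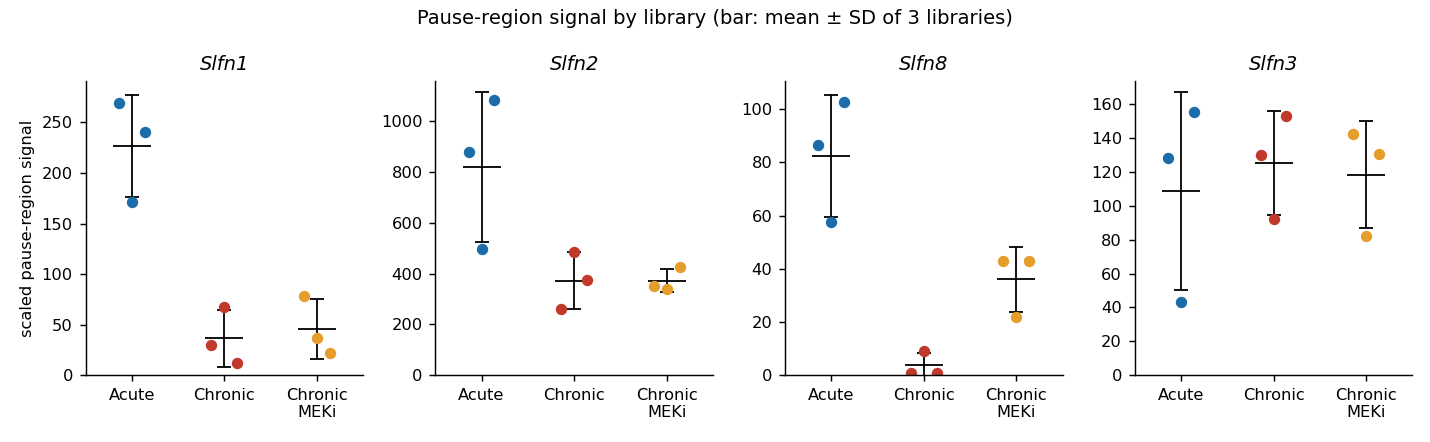
Scaled pause-region signal (vertical axis, from 0, a separate scale in each panel) of the 4 members that passed the filter, in 9 libraries by group; dots are libraries and bars the mean ± SD of 3. Slfn1, Slfn2 and Slfn8 are highest in acute libraries and Slfn3 overlaps between groups.

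The remaining members had little pause-region signal and were not tested. Slfn5 read 14.1, 10.1 and 25.7 in acute libraries and was listed at 0 in the other 6. Slfn9 read 0 to 9.88 at the start of the row used, though it rose in the gene body. A shorter annotated Slfn9 transcript starts inside the gene and had a deposited pause-region signal, before scaling, of 0.85 to 18.6 in acute, 21.7 to 42.4 in chronic and 19.95 to 92.1 in ChronicMEKi libraries. Its start lies within the span of the row used, so this signal cannot be told apart from that of the gene body. The row of the shorter transcript was looked at after the values were seen and has no test. Slfn4 was listed at 0 in all libraries but 1, where it read 5.29.

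Pause-region signal was also set against gene-body signal, as the difference of their log2 values in each library. As a percentage of the gene body, it was highest in Slfn2, with 22.1% ± 5.94 for Acute (SD, n = 3), 17.4% ± 4.75 for Chronic and 15.03% ± 0.906 for ChronicMEKi, and 5.08% ± 0.759, 1.66% ± 2.14 and 4.66% ± 1.40 in Slfn8. The 2 regions were scaled with separate factors per library, so these percentages and their differences between groups depend on the scaling. On the deposited scale the median difference of all tested genes between Chronic and Acute moved by 0.39. The Slfn2 difference in that comparison was -0.33 with the scaling used and -0.44 to 0.07 with the other scalings. Limma called 0 of 4 members in each of the 3 comparisons, and 0 had an unadjusted p under 0.05. Of all 7413 genes tested 0% were called in any of them, with 747, 405 and 586 at an unadjusted p under 0.05 for Chronic minus Acute, ChronicMEKi minus Chronic and ChronicMEKi minus Acute. The largest difference between Chronic and Acute among members was that of Slfn8, -0.67 ± 0.39 (SE, limma adjusted p = 0.572), so a shift between the 2 regions was not detectable with these libraries.

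Other genes of the pathways with which the family is linked were read from lists. Of 32 type I interferon response genes 24 were tested: between Chronic and Acute 17 were lower and 1 higher (Mx1), with a median log2 change of -0.96 beside -0.02 for all tested genes, of which 15.9% were called lower and 18% higher. Of these, Mx2 (means 65.9 in acute, 17.5 in chronic and 30.0 in ChronicMEKi libraries) passed the filter only through acute libraries, which fixed its direction. With the filter at 100, 22 of the list were tested, 16 lower and 1 higher, with a median of -0.94. From Chronic to ChronicMEKi 15 were higher and 0 lower, with a median of 0.66 beside 0.04 and beside 9.93% and 7.65% of all genes. Without ChronicMEKi replicate 1 these were 10 higher and 1 lower. Between ChronicMEKi and Acute 2 were higher and 11 lower, beside 14.4% and 11.5% of all genes, and 7 were lower without ChronicMEKi replicate 2 or 3. The lowest and highest changes of the first comparison were those of Isg20, an exonuclease (-3.65 ± 0.26, limma adjusted p = 3.064e-09), and Mx1, an antiviral GTPase (0.65 ± 0.17, adjusted p = 0.00711). Zbp1, a sensor of left-handed nucleic acid, fell from 1275 ± 72.6 (SD, n = 3) to 222.8 ± 52.8 and stood at 687.6 ± 139 in ChronicMEKi libraries. Between Chronic and Acute, Slfn9 moved against the direction of most genes of this list, and Slfn1, Slfn2 and Slfn8 with it. The list was chosen with earlier results of these data known, and a link to the Schlafen genes was not tested.

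All 15 genes of a list for T cell quiescence were tested. Between Chronic and Acute 9 were lower and 4 higher, beside 15.9% and 18% of all genes, with a median log2 change of -0.67 beside -0.02. From Chronic to ChronicMEKi 6 were higher and 2 lower, beside 9.93% and 7.65% of all genes, with a median of 0.17 beside 0.04. That median was 0.05 without ChronicMEKi replicate 1, 0.06 without Chronic replicate 2, 0.10 without ChronicMEKi replicate 3, 0.11 without acute replicate 2 and 0.27 without Chronic replicate 1. Between ChronicMEKi and Acute 4 were higher and 7 lower, beside 14.4% and 11.5%, with a median of -0.32 beside 0.00. Klf2, a transcription factor of resting T cells, had the largest fall, from 1171 ± 295 (SD, n = 3) to 143.8 ± 55.2, and stood at 764.2 ± 150 in ChronicMEKi libraries. Vsir, an inhibitory receptor of resting T cells, went from 9042 ± 1432 to 2013 ± 221 and 5062 ± 432. Tob1, an antiproliferative factor, had the largest rise, from 97.6 ± 34.5 to 270.5 ± 78.1 and 298.6 ± 34.9, so the list did not move as one.

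The members' own patterns over the 9 libraries gave Pearson correlations of log2 scaled signal of 0.95 between Slfn1 and Slfn8, 0.96 between Slfn1 and Slfn2, and -0.81 between Slfn8 and Slfn9. Slfn9 also correlated at -0.88 with Slfn1, -0.79 with Slfn2, -0.65 with Slfn5 and 0.77 with Slfn3. All these values are descriptions over libraries that share 3 groups. The genes most like Slfn1 were Gpcpd1 (r = 0.992), Map3k8 and Ifi208, an interferon-inducible gene that read 803.1 in acute, 9.23 in chronic and 72.9 in ChronicMEKi libraries as means. Those most like Slfn8 were Parvg (0.991), Rhoh, which acts in T cell receptor signalling, and Sgk3, a kinase, and those most like Slfn2 were Dmtf1 (0.989), Traf6 and Wdr82. For Slfn9 they were Sspn (0.983), Sf3a3 and Hgf, for Slfn3 Cast (0.958), Asb5 and Umad1, and for Slfn5 Dhx15 (0.984), Rsrc2 and Ccdc73.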

How the data were processed

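Nascent RNA captured after 5-ethynyl uridine labelling was read as signal per transcript in a gene-body and a pause-region table, deposited by the authors. Reads were handled with STAR 2.7.0a on build mm10, per the submitters' processing notes; the counting program, the regions' bounds and strand use are not given in the sources used here. The deposited signal was scaled per library (low values are whole multiples of a step of 0.764 to 1.06) and was not treated as counts.

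Rows were joined to GENCODE M21 (GRCm38), and each gene kept its row of largest mean gene-body signal. Genes reaching 50 in 3 or more libraries were scaled with a trimmed mean without weights (cutting 30% of log ratios and 5% of levels per end) and fitted in limma 3.58.1 (R 4.3.3) as log2(signal + 5), all 9 libraries, with trend and robust moderation. Fold changes of weak genes are thereby understated. The difference between pause region and gene body was fitted without the trend. P-values were Benjamini-Hochberg adjusted over all tested genes, threshold 0.05. The fit was tested on simulated data. Transcripts were compared with blastn 2.17.0+ and promoters with Biopython 1.88. The members were fixed by symbol, flanks by distance, pattern neighbours as the 3 highest r per member, and members and lists were chosen with earlier results of these data known.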

Additional observations from a re-analysis of the deposited data

How the results depend on the processing

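In the gene body, the calls of Slfn1, Slfn2, Slfn8 and Slfn9 against Acute, and those of Slfn1 and Slfn8 between ChronicMEKi and Chronic, kept their direction and their side of the threshold under all 22 alternatives. Slfn3 turned between Chronic and Acute, to -0.14 with library totals and -0.13 on the deposited scale. Relative to the median gene, which those scalings moved by -0.48 and -0.47, it kept its sign. Between ChronicMEKi and Chronic, where neither was called, Slfn3 was -0.019 and Slfn5 -0.018 without a filter. In the pause region Slfn3 was -0.24 between Chronic and Acute with library totals, and the difference of Slfn8 between pause region and gene body was 0.56 with pseudocount 20. The cause of these turns was not tested.

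Without a filter, the genes called in the gene body numbered 2642 (ChronicMEKi minus Acute) and 1637 (ChronicMEKi minus Chronic). In the pause region they numbered 494, 206 and 107 for Chronic minus Acute, ChronicMEKi minus Acute and ChronicMEKi minus Chronic. Library totals called 1723 genes in the pause region between Chronic and Acute, 123 higher and 1600 lower. Without trend and robust moderation 232 genes were called there between ChronicMEKi and Acute, with 1 member, and 110 between ChronicMEKi and Chronic, with 1 member, Slfn8. Slfn8 was also the 1 member called there with the mean over all rows of a gene. For pause region minus gene body, between Chronic and Acute, 18 genes were called with pseudocount 20, 10 without a filter, 3 with the mean over rows, 2 on the deposited scale and 1 with only the 2 groups compared. Between ChronicMEKi and Acute 2 were called with pseudocount 20, 1 with the filter at 100 and 1 with the mean over rows. Between ChronicMEKi and Chronic 2 were called without a filter, 1 with the filter at 100 and 1 with totals that leave out the ribosomal RNA-like locus. No Schlafen gene was called for pause region minus gene body under these alternatives.

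Leaving out each library in turn gave 545 to 750 genes called in the pause region between Chronic and Acute, 233 to 512 between ChronicMEKi and Acute, with 1 to 2 members, and 109 to 279 between ChronicMEKi and Chronic. For pause region minus gene body between Chronic and Acute it gave 0 to 1. Log2 changes between ChronicMEKi and Chronic ranged from -0.020 to 0.12 for Slfn3 and -0.42 to 0.30 for Slfn5 in the gene body, and from -0.15 to 0.90 for Slfn1 and -0.20 to 0.25 for Slfn2 in the pause region. Slfn3 ranged from -0.22 to 0.66 in the pause region between Chronic and Acute, and Slfn10-ps from -0.34 to 0.032 in the gene body between ChronicMEKi and Acute.

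Replicate numbers are shared between groups. Over all groups, deviations of same-numbered libraries correlated at -0.53 to 0.10 (9 pairs), those of other pairs at -0.37 to 0.51 (18 pairs). Between Acute and Chronic alone, same-numbered libraries correlated at 0.0747 to 0.0979 and the others at -0.0766 to -0.0119. The main fit did not use pairing. With the replicate block 5497, 4263 and 2956 genes were called in the gene body for Chronic minus Acute, ChronicMEKi minus Acute and ChronicMEKi minus Chronic. The block lost 1 member's call, that of Slfn3 between Chronic and Acute (adjusted p = 0.0554). The geometric mean reference, all alternatives for pause region minus gene body, those for Slfn10-ps and those for the lists were chosen after seeing the data. Over all alternatives, 14 to 21 interferon response genes were called lower between Chronic and Acute, and 10 to 16 higher between ChronicMEKi and Chronic. Of the quiescence list 8 to 10 were called lower in the first comparison and 4 to 6 higher in the second. Depth in reads is unknown, so what it limits for Slfn4 and Slfn5 cannot be given.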
